A study of Mus musculus with 18 samples.

Results

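The 10 genes described here belong to the actin cytoskeleton and are known targets of serum response factor (SRF), SRF's own gene among them. They were followed in single cells of mouse skin stretched by an expander under the skin. The 10 members are Srf, the actins Acta2, Actb and Actg1, the filament-binding genes Tagln, Myl9, Tpm1 and Tpm4, and the adhesion and cross-linking genes Vcl and Flna. They were chosen by symbol, with earlier results of these data known, and all 10 were found among the 32285 genes of each expression matrix. That SRF drives them is background knowledge, since binding of SRF was not measured in these libraries.

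Every mouse had surgery, with an incision near the tail and a path opened under the skin up to the neck. A hydrogel expander was placed in that path in the expanded arm and none in the control arm, so both arms share the wound. Skin was digested after 1, 2 or 4 days, live cells that excluded DAPI were sorted, and each arm gave 5 single-cell mRNA libraries: 2 of day 1, 2 of day 2 and 1 of day 4. All mice of an arm and sequencing round were pooled in 1 tube, so a library is the replicate. Strain, age and sex are not given in the sources used here. An expander of this kind adds a foreign body as well as stretch, and the arms cannot tell these apart.

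SRF is a transcription factor that binds a short A/T-rich element, the CArG box. Its partners of the myocardin family are MRTF-A and MRTF-B, and myocardin in muscle. Of these, MRTF-A and MRTF-B are held in the cytoplasm by actin monomers and enter the nucleus when monomers are built into filaments. Through MRTF-A and MRTF-B, genes of the contractile and adhesion apparatus respond to the state of actin itself. A second set of partners, the ternary complex factors, brings SRF to immediate early genes after growth factor signals. In skin, high Acta2, Tagln and Myl9 are best known from the smooth muscle and pericytes around vessels and from contractile fibroblasts, whereas Actb and Actg1 form the actin of all cells.

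Positions are those of the mouse genome build GRCm38 with GENCODE vM21 genes. Srf spans chr17:46548329-46556175, Acta2 chr19:34241090-34255590, Actb chr5:142903115-142906754 and Actg1 chr11:120345690-120348542, all on the minus strand. Tagln spans chr9:45929619-45936058 and Tpm1 chr9:67022590-67049406, also on the minus strand, as does Flna at chrX:74223461-74249820. Myl9 spans chr2:156775420-156781658, Tpm4 chr8:72134975-72153142 and Vcl chr14:20929398-21033676, on the plus strand. Tagln overlaps Pcsk7, and Vcl overlaps Ap3m1, each a coding gene on the other strand. Whether the counting used strand, and how reads shared by the closely related actin genes were assigned, is not given in the sources used here.

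The promoters are shown because the CArG box is what would tie a member to SRF by sequence. RefSeq windows of 300 bases (GRCm38.p6, from 250 bases before a gene's start to 50 after it) were at hand for 8 of the 10 members, all but Actb and Tagln. The starts are those of RefSeq, which differ from the GENCODE ends of the spans above: they lie 0 to 47 bases inside the span for Srf, Actg1, Myl9 and Vcl, 193 for Tpm1, 217 for Acta2, 313 for Tpm4 and 3286 for Flna. The box searched was CC, then 6 bases that are each A or T, then GG, a pattern that reads the same on both strands. An exact match occurred in the windows of 4 of those 8 members (Srf, Actg1, Myl9 and Vcl) and in 1.63% of the 32851 RefSeq windows of the same length. Srf held 2 boxes, 82 and 62 bases before its RefSeq start, and 6 windows in all (0.0183%) held 2 or more. Actg1 held 1 box 90 bases before its start, Myl9 1 box 161 bases before and Vcl 1 box 227 bases before. The windows of Acta2, Tpm1, Tpm4 and Flna held no exact match in these 300 bases; for Tpm4 and Flna the window lies wholly inside the GENCODE span, and the bases before the GENCODE start were not searched. Below are the 200 bases from 250 to 51 before the start of each member with a box, 5′ to 3′ on the strand of the gene, with the boxes in capitals. The stretches are chr17:46556213-46556412 (minus strand), chr11:120348546-120348745 (minus), chr2:156775214-156775413 (plus) and chr14:20929148-20929347 (plus).
Srf: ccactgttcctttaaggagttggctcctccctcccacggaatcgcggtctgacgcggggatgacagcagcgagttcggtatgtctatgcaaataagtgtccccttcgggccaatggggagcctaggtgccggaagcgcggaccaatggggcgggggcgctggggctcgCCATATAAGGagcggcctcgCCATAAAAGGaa
Actg1: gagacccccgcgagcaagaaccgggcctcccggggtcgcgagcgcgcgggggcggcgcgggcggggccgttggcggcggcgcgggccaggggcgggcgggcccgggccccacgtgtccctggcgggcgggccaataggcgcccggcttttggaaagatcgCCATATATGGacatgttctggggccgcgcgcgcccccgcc
Myl9: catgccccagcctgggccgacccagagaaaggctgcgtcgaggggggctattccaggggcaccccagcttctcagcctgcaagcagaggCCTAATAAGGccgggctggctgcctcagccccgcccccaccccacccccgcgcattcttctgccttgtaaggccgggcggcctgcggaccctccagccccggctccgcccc
Vcl: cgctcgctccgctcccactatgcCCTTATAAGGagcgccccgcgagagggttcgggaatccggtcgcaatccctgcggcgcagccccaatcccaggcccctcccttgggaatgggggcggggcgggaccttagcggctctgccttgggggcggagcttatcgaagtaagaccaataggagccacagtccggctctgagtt

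The 10 libraries held 55174 barcodes, from 2468 to 9115 each, and 17726739 to 75470722 gene UMIs each. After filters on depth, mitochondrial share and doublets, 44458 cells remained, 27716 control and 16742 expanded, with a library median of 6440.5 to 12847.5 UMIs per cell. Between 8.60% and 24.4% of a library's barcodes exceeded the mitochondrial limit, with the 2 highest shares in the expanded libraries of day 2 round 2 and day 4. Of 54812 distinct barcodes, 361 occurred in more than 1 library. Clusters were named from marker lists that hold no member, except 1 cluster of 2851 cells led by Coch, Fmod, Cck and Tnmd, which fit no list and is called the Coch-led cluster. Within most classes the expanded cells were deeper, for example with library medians of 10640.5 to 19556 UMIs per fibroblast-like cell against 7815 to 13798.5 in controls.

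Levels are given as CPM, a gene's UMIs per 1000000 UMIs of all cells of a class in a library. In control skin, the contractile members marked 1 class, the pericyte or smooth muscle-like cells, called mural cells here. Mean Acta2 was 7162 CPM in mural cells (n = 5 libraries), and the next class, muscle satellite-like cells, held 170 CPM ± 239 (SD, n = 4). Tagln, an actin-binding protein of smooth muscle, was at 5203 CPM in mural cells and at 140 CPM in endothelial-like cells, the next class. Myl9, the regulatory light chain of smooth muscle myosin, was at 2165 CPM in mural cells and at 144 CPM in dermal papilla-like cells. Tpm1, a tropomyosin that lies along actin filaments, was at 4357 CPM in mural cells, and at 496 CPM in dermal papilla-like and 415 CPM in basal keratinocyte-like cells. Flna, the filament cross-linker filamin A, was at 867 CPM in mural cells, 203 CPM in dendritic-like and 161 CPM in T cell-like cells. For these 5 genes the libraries of mural cells did not overlap those of the next class. Mural cells are 1 cluster here, and Acta2, Tagln and Myl9 are among its 10 leading genes although the clustering used no member.

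The other members followed other orders. Vcl, the adhesion protein vinculin, was highest in mast-like cells at 315 CPM and mural cells at 285 CPM, whose libraries overlapped, and dermal papilla-like cells came next at 196 CPM without overlap. Actb, the main non-muscle actin, was highest in 3 immune classes, with 9427 CPM in dendritic-like, 8602 CPM in neutrophil-like and 5465 CPM in macrophage or monocyte-like cells, and fibroblast-like cells were near the bottom of the order at 2122 CPM. Actg1, the other non-muscle actin, was at 6826 CPM in neutrophil-like, 4753 CPM in dendritic-like and 3335 CPM in suprabasal keratinocyte-like cells, and the first 3 classes of that order did not overlap with one another. The order of Actg1 ended with mural cells at 1010 CPM, the class in which 5 other members peaked. Tpm4, a tropomyosin of non-muscle cells, ran from 693 CPM in neutrophil-like and 544 CPM in T cell-like cells down through overlapping neighbours. Srf itself was low in every class: outside neutrophil-like cells, where both control libraries held no Srf UMI, means ran from 5.93 to 19.8 CPM and all neighbours in the order overlapped.

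**Figure D1:**
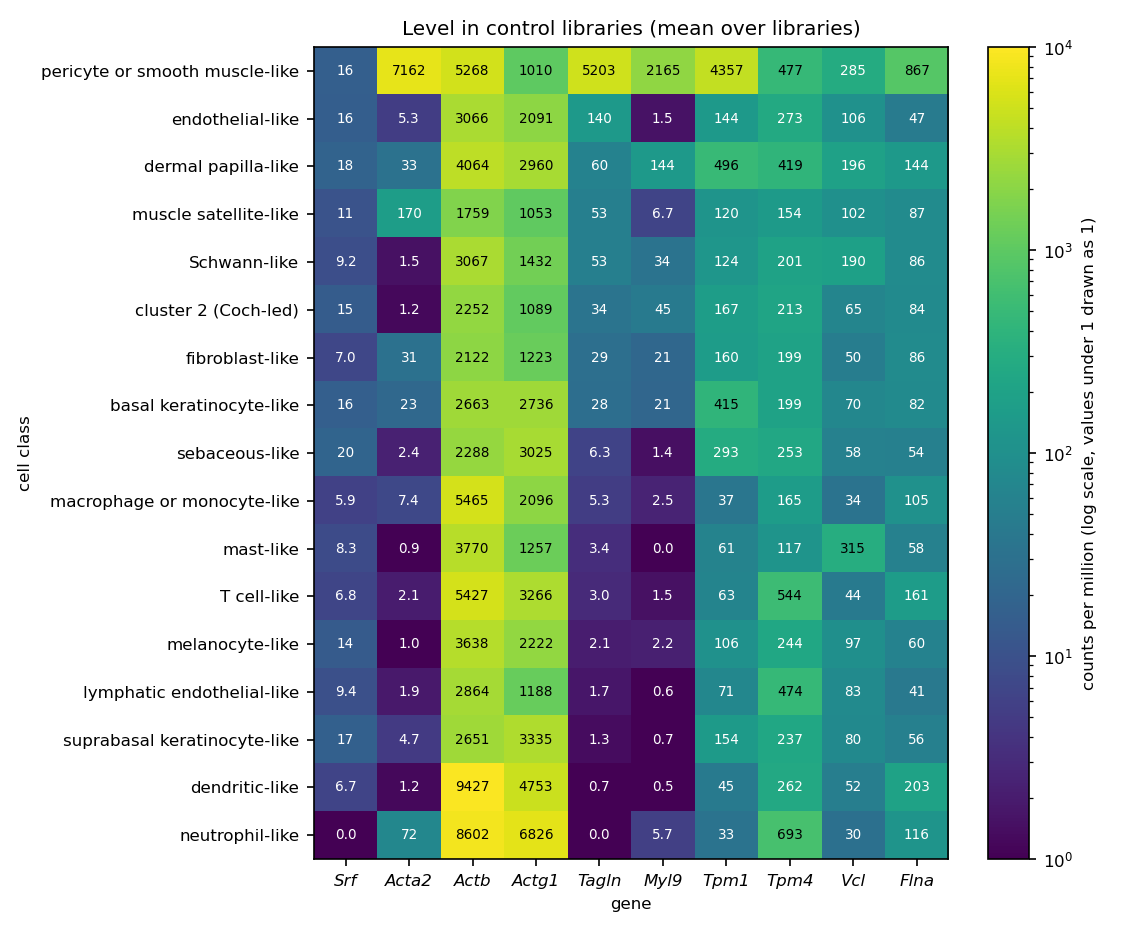
Mean level of each member in control libraries by cell class, as CPM on a log colour scale, one row per class and one column per gene. Mural cells (pericyte or smooth muscle-like) stand out in the columns of Acta2, Tagln, Myl9, Tpm1 and Flna, with Acta2 at 7162 CPM against 170 CPM in the next class, whereas Actb is highest in dendritic-like, neutrophil-like and macrophage or monocyte-like cells and Actg1 in neutrophil-like and dendritic-like cells.

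The genes whose level over the 16 named classes was most like that of a member were looked up among 12811 genes, with Pearson's r of the control means on the log2(CPM + 1) scale as a description. The closest to Acta2 were Kcne4 (r = 0.91), Ldb3 (0.90) and Lin7a (0.89), and the closest to Myl9 were Susd5 (0.94), Slc2a4 (0.93) and Cox4i2 (0.93). Tpm1 was closest to Adra2a (0.92), Hspb6 (0.92) and Slc2a4 (0.91), Flna to Cacnb2 (0.91), and Tagln to A730049H05Rik (0.92). Actb was closest to Cap1 (0.90), which binds actin monomers, Srf to Nolc1 (0.97), Actg1 to Dck (0.87), Tpm4 to Rasgrp2 (0.84) and Vcl to Peg10 (0.83). All classes share the same libraries, and each r rests on 16 points of which mural cells are the extreme one for the contractile members.

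The expanded arm was compared with the control arm within each of 12 classes, to ask which cells change their actin genes in stretched skin. Counts were summed per class and library and tested with the quasi-likelihood test of edgeR, adjusted for day, and an adjusted p is the Benjamini-Hochberg value over all genes tested in the class. Of the 120 pairs of a member and a class, 97 passed the filter on low counts, 9 were higher and 10 lower in expanded skin, and 34 had an unadjusted p under 0.05. Over all genes tested in the 12 classes 14.6% of the pairs of a gene and a class were called, from 0.222% in Schwann-like to 32.3% in fibroblast-like cells, so 19 of 97 is not far from that background. By gene, Actb was called higher in 5 of 12 classes and lower in 0, Flna higher in 2 and Srf in 1, and Actg1 was called lower in 3 of 12, Vcl in 2 of 12, Tagln in 2 of 7 and Myl9 in 2 of 5. Tpm1 was higher in 1 class and lower in another, and Tpm4, tested in 12 classes, and Acta2, tested in 3, were called in none (DESeq2 called the same 19 pairs). Estimates, called or not, went both ways for several members: those of Actg1 were above 0 in 6 of 12 classes, of Flna in 7 of 12 and of Srf in 6 of 10. Those of Actb were above 0 in 11 of 12 classes, and those of Tpm1 and of Vcl in 1 of 12 each. A fold change is scaled by TMM and is smaller than the ratio of CPM values where the whole class shifts, which in fibroblast-like cells amounts to 0.22 on the log2 scale for the median gene. With library totals in place of TMM, 21 pairs were called, 14 higher and 7 lower.

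**Figure D2:**
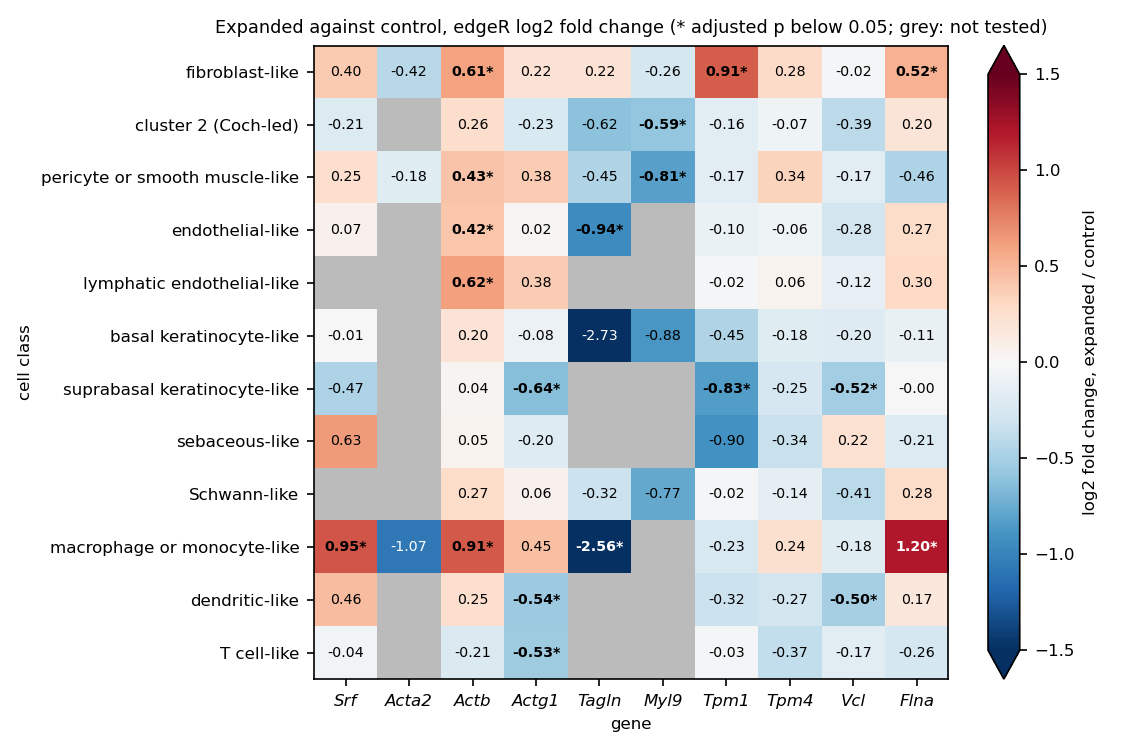
Log2 fold change of each member, expanded against control, in 12 cell classes, from red (higher) to blue (lower) as edgeR estimates them; an asterisk marks an adjusted p below 0.05 and grey marks pairs under the count filter. The 9 higher pairs lie in the columns of Actb, Flna, Srf and Tpm1, and the 10 lower ones in those of Actg1, Tagln, Myl9, Vcl and Tpm1.

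In fibroblast-like cells (10600 control and 2206 expanded cells), Actb, Flna and Tpm1 were higher in expanded skin, and the contractile markers Acta2, Tagln and Myl9 were not called. Values are listed in the order day 1 rounds 1 and 2, day 2 rounds 1 and 2, and day 4. Actb was at 1771, 1879, 1991, 2883 and 2085 CPM in control libraries and at 3408, 3244, 3681, 4610 and 3800 CPM in expanded ones. The groups did not overlap, and the expanded library was higher in 5 of 5 pairs, by 0.61 on the log2 scale (SE 0.115, adjusted p = 0.00231). Across the class 32.3% of 12572 genes were called in either direction, so 3 of 10 members called is close to that background share. The median change of the 10 members was 0.25 on the log2 scale and that of all genes tested 0.01.

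Flna was at 87, 93.7, 81.2, 90.4 and 75.2 CPM in control and at 170, 142, 150, 160 and 101 CPM in expanded fibroblast-like cells. The lowest expanded library, that of day 4, lay above the highest control library, and the fold change was 0.52 on the log2 scale (SE 0.103, adjusted p = 0.00307). Tpm1 was at 81.3, 156, 102, 207 and 253 CPM in control and at 165, 264, 391, 472 and 475 CPM in expanded cells. Its groups overlapped, since both arms were higher on later days, but each expanded library lay above its control partner. The fold change of Tpm1 was 0.91 on the log2 scale (SE 0.238, adjusted p = 0.0158); without the expanded library of day 1 round 2 the adjusted p was 0.0529. Actb and Flna kept their call under all 20 alternatives tried.

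Srf stood just outside the threshold in these cells. Its level was 5.1, 6.9, 6.09, 7.86 and 9.19 CPM in control and 9.19, 11.8, 9.55, 11.1 and 11.8 CPM in expanded libraries, with the lowest expanded value equal to the highest control value at this rounding. The change was 0.40 on the log2 scale (adjusted p = 0.0571), and it was called with pairs of a day and round as a block (adjusted p = 0.0384), with a mitochondrial limit of 5% (0.0462) and with library totals in place of TMM (0.0137). Actg1 was at 1038 to 1440 CPM in control and 1533 to 1965 CPM in expanded libraries, without overlap, but its change was 0.22 on the log2 scale (adjusted p = 0.154) once scaled. Tpm4 changed by 0.28 (adjusted p = 0.149) and Vcl by -0.02 (adjusted p = 0.936). With library totals Actg1 and Tpm4 were called too, at 0.44 and 0.50 on the log2 scale.

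**Figure D3:**
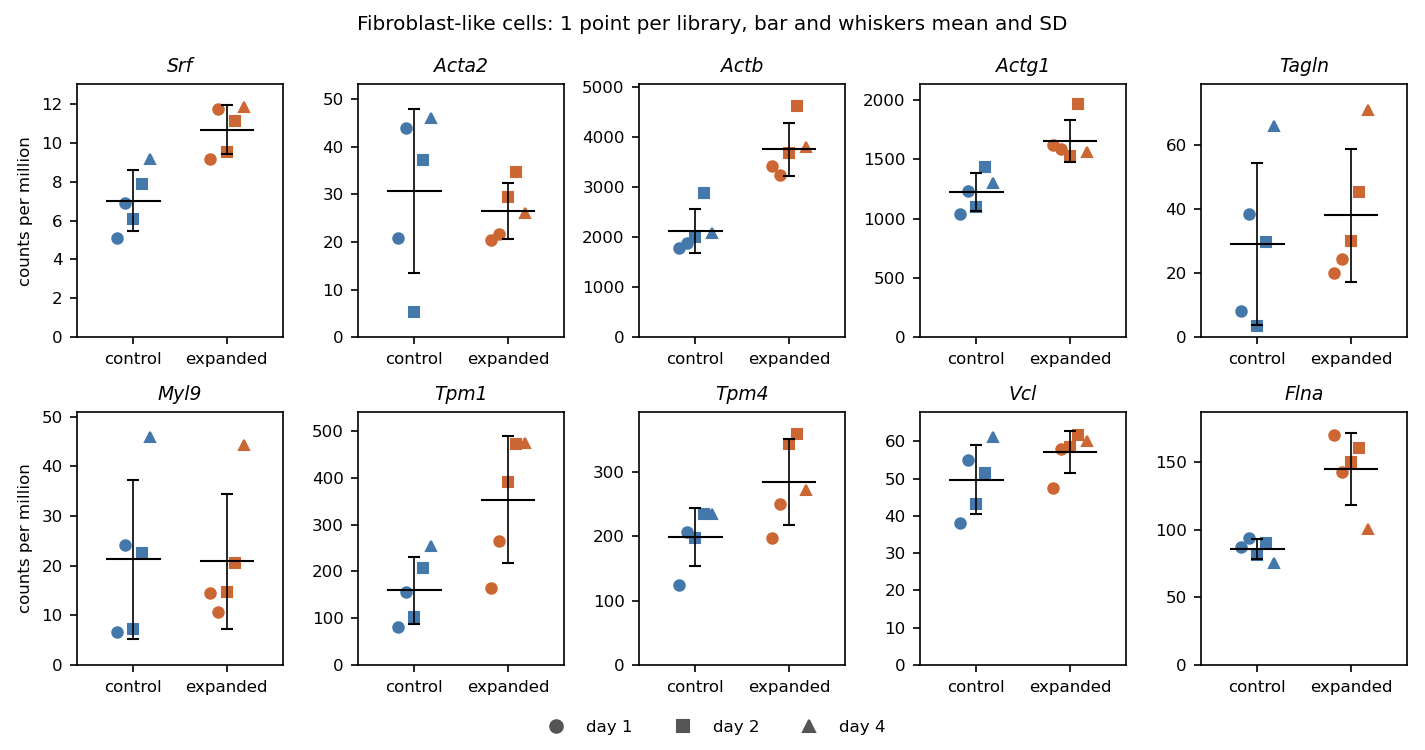
Level of each member in fibroblast-like cells, in CPM, with 1 point per library (the marker shape gives the day), a line at the mean of 5 libraries and a bar of 1 SD for the control and the expanded arm. The 5 expanded libraries lie above the 5 control ones for Actb (3244 to 4610 against 1771 to 2883 CPM) and Flna, and the groups of Acta2, Tagln and Myl9 overlap.

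Acta2, the actin of smooth muscle and of contractile fibroblasts, was at 20.9, 43.9, 5.37, 37.2 and 46.1 CPM in control fibroblast-like cells and at 20.4, 21.7, 29.5, 34.7 and 26.2 CPM in expanded ones. The change was -0.42 on the log2 scale with an adjusted p of 0.55; without the filter on low counts it was called lower (-0.46, adjusted p = 0.0106). Tagln (control 3.34 to 66.1 CPM, expanded 20 to 71.1 CPM, adjusted p = 0.812) and Myl9 (6.58 to 46.0 against 10.6 to 44.4 CPM, adjusted p = 0.636) overlapped as widely. These sums run over 5 clusters that the arms fill differently. Cluster 0, led by Col1a1, Col1a2 and Cpz, held 5751 control and 218 expanded cells, and cluster 1, led by Igfbp2, Mme, Mmp3 and Tnc, held 1974 and 1314. Cluster 5, led by Lrrc15, Cilp, Tnn and Slit2, held 2032 and 379 cells, cluster 22 held 269 and 281, and cluster 20 held 574 and 14.

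In control skin Acta2 sat mainly in cluster 5, with a mean of 152 CPM ± 81.2 (SD, n = 5) against 4.71 CPM in cluster 1 and 4.48 CPM in cluster 0. Tagln and Myl9 in control cluster 5 were at 148 and 86.6 CPM. In expanded skin the mean of Acta2 in cluster 5 was 35.8 CPM ± 27.8 (n = 5), with library values of 9.91 to 74.2 CPM against 14.4 to 211 CPM in control. Tagln in cluster 5 was at 105 CPM and Tpm1 at 415 CPM in expanded skin, against 148 and 398 CPM in control. Cluster 5 was not tested on its own.

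Cluster 1, which holds the most expanded fibroblast-like cells, was tested alone, a choice made after the clusters were seen. There Acta2 was at 7.45, 3.80, 1.36, 1.90 and 9.05 CPM in control and at 20.6, 28.5, 35.7, 30.8 and 20.4 CPM in expanded libraries. Tagln was at 5.26, 2.00, 0.681, 2.62 and 6.70 CPM in control and at 12.2, 22.6, 28, 12.2 and 32.5 CPM in expanded ones. All expanded libraries lay above all control libraries for both genes, by 2.26 (adjusted p = 0.00428) and 2.40 (adjusted p = 0.00142) on the log2 scale. Myl9 was at 0.681 to 4.52 CPM in control and 4.45 to 23.4 CPM in expanded libraries, higher by 1.90 on the log2 scale (adjusted p = 0.000275), with a slight overlap. Control levels of Acta2, Tagln and Myl9 were low here, from 0.681 to 9.05 CPM, so their fold changes start from a low base. Tpm1 (0.81), Actb (0.61) and Flna (0.51) were called there as well, which makes 6 of 10 members, all higher, where 29.8% of 11077 genes were called in either direction.

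The levels of Acta2 and Tagln in expanded cluster 1 remained under their means in control cluster 5. The summed level of 10 smooth muscle markers in cluster 1 was 7.49 to 14.8 CPM in control and 4.69 to 30.6 CPM in expanded libraries, with Myh11, the smooth muscle myosin, at 0 to 2.34 and 0 to 6.58 CPM. The summed level of 9 pericyte markers went the other way, at 533 to 1071 CPM in control and 253 to 421 CPM in expanded libraries. The part of RNA from such cells in the result was not tested. At clustering resolution 2, Tagln in fibroblast-like cells was called higher, by 2.41 on the log2 scale (adjusted p = 0.0203), but over another set of cells. A Tnc-led cluster of 539 control and 982 expanded cells stayed outside the class there. So did a Lrrc15-led cluster of 726 control and 91 expanded cells. An Igfbp2-led cluster at that resolution held 1366 control and 135 expanded cells, and an Mme-led one 398 and 251. Tnc, Igfbp2 and Mme are all among the leading genes of cluster 1. The part of such makeup within cluster 1 in its rises was not tested.

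**Figure D4:**
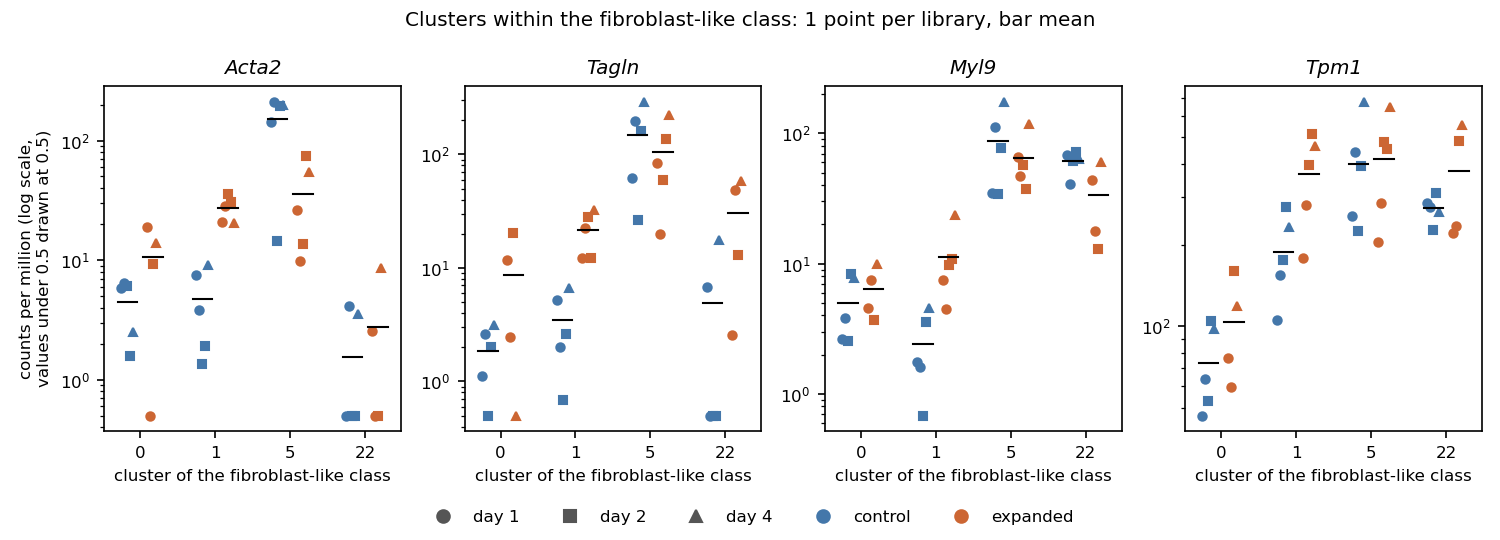
Level of Acta2, Tagln, Myl9 and Tpm1 in 4 clusters of fibroblast-like cells, in CPM on a log axis, 1 point per library and arm. Acta2 in control skin is highest in cluster 5 (mean 152 CPM) and lies below 10 CPM in cluster 1, where the expanded libraries reach 20.4 to 35.7 CPM.

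The share of fibroblast-like cells with at least 1 UMI was compared after thinning each cell to 2000 UMIs (10442 control and 2183 expanded cells; 158 and 23 shallower cells were left out). Tpm1 was found in 20.5% ± 6.28 of control and 40.1% ± 9.77 of expanded cells (SD, n = 5 each), against 6.08% of control macrophage or monocyte-like cells. Flna was found in 15.2% and 22.8% and Srf in 1.35% and 2.42% of cells. Acta2 was found in 1.66% and 1.74% and Tagln in 2.25% and 3.95%. Both exceed the shares in control dendritic-like cells (0.223% and 0.159%), which should lack these transcripts and had library medians of 8133 to 11563.5 UMIs per cell. Permuting the arms over the 5 and 5 libraries (exact test, two-sided) gave 5 of 10 members an unadjusted p under 0.05, with p = 0.0238 for Tpm1, and 0 of 10 after adjustment over the members (0.0794 for Tpm1). The smallest p this test can give is 0.00794. Thinned to 1000 UMIs, 5 members were called, and without thinning 5 were called, where Tpm1 was found in 56.4% and 83.6% of cells.

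In mural cells (704 control and 277 expanded cells, at least 47 per library), Myl9 was lower and Actb higher in expanded skin. Myl9 was at 1704, 1645, 2266, 2719 and 2491 CPM in control and at 1688, 1034, 1131, 1586 and 1055 CPM in expanded libraries. It was lower in 5 of 5 pairs, barely so in day 1 round 1, and the fold change was -0.81 on the log2 scale (SE 0.177, adjusted p = 0.00509); with a mitochondrial limit of 5% the adjusted p was 0.0533. Actb was at 4978, 4160, 6079, 6797 and 4328 CPM in control and at 9094, 6910, 6716, 8312 and 6350 CPM in expanded libraries, 0.43 higher on the log2 scale (SE 0.142, adjusted p = 0.0403). The call of Actb held only without the control library of day 2 round 2 or the expanded library of day 2 round 1 among the 10 fits that each left out 1 library, with an adjusted p up to 0.135, and it was lost without the filter on low counts. In this class 22% of 6951 genes were called.

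The other members were not called in mural cells, though 3 of them were under an alternative. Acta2 was at 6350, 5616, 9444, 7365 and 7035 CPM in control and at 10128, 7118, 6191, 7199 and 3903 CPM in expanded libraries (log2 change -0.18, adjusted p = 0.544). Tagln was at 5021, 4846, 5743, 5153 and 5250 CPM in control and at 6547, 4761, 3823, 3588 and 2474 CPM in expanded libraries (log2 change -0.45, adjusted p = 0.0816). Both genes were highest in the expanded library of day 1 round 1 and lowest in that of day 4. Flna changed by -0.46 (adjusted p = 0.0891), Actg1 by 0.38 (0.079), Tpm4 by 0.34 (0.175), Tpm1 by -0.17 (0.38), Vcl by -0.17 (0.418) and Srf by 0.25 (0.642). Without the filter on low counts Tagln (-0.46, adjusted p = 0.0365) and Flna (-0.47, 0.0376) were called lower, and Actg1 was called higher with thinned cells (0.50, 0.026) and with library totals (0.48, 0.0343).

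Of 19 markers of pericytes and smooth muscle that are not members, 5 were called, a share near the 22% of all genes in this class: Myh11 fell from 2273 to 1228 CPM (log2 change -1.16, adjusted p = 0.00692), Mustn1 from 1181 to 689 CPM (-0.87), Pcp4l1 from 485 to 245 CPM (-1.18) and Vtn from 94.2 to 58.8 CPM (-0.72), and Pdgfrb, a receptor of pericytes, rose from 344 to 485 CPM (0.40, adjusted p = 0.0425). Of the 10 smooth muscle markers 3 were called, and Des (0.48, adjusted p = 0.0666) and Actg2 (0.04, 0.986) had estimates above 0. The summed smooth muscle markers ran from 5171 to 7005 CPM in control and from 2756 to 7508 CPM in expanded libraries, and the summed pericyte markers from 3265 to 7173 and from 4315 to 7692 CPM. The mural cluster pools pericytes and smooth muscle, so a change in their mix and a change within either cannot be told apart here. A further cluster of 213 control and 159 expanded cells, led by haemoglobin genes and then Des, Tpm2, Myh11, Tagln, Myl9 and Acta2, stayed unnamed and is not in these sums.

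**Figure D5:**
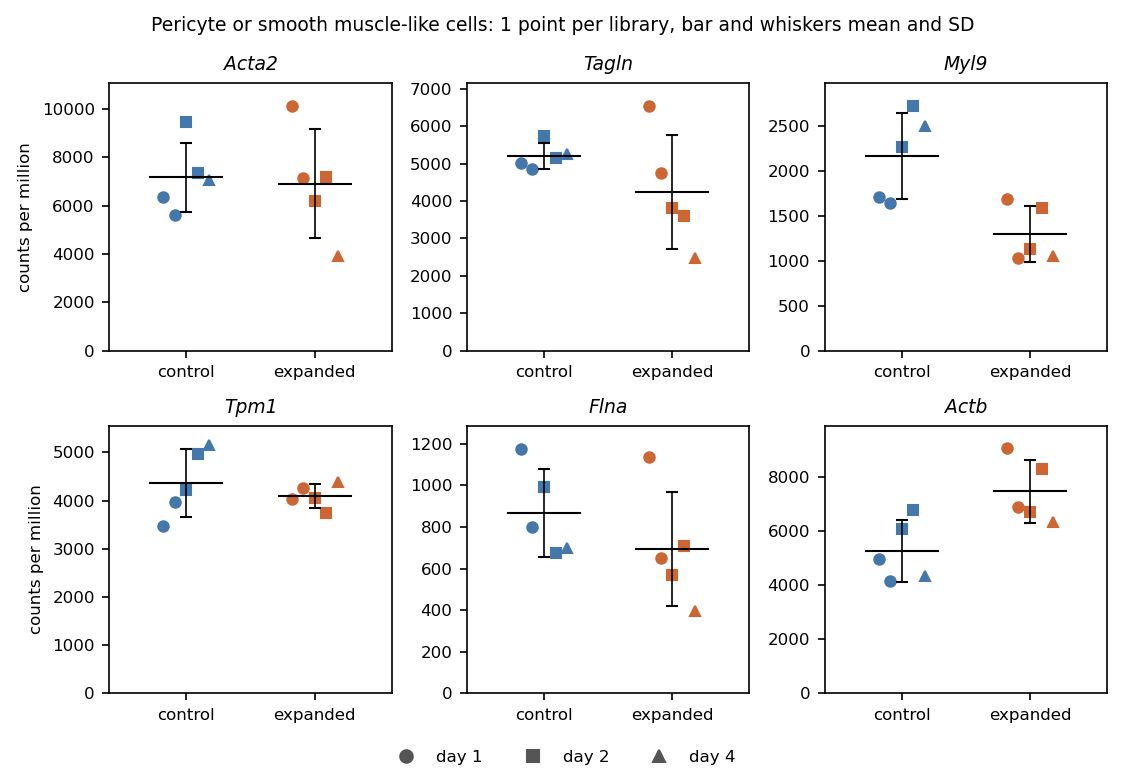
Level of 6 members in mural cells, in CPM, with 1 point per library (the marker shape gives the day), a line at the mean and a bar of 1 SD over 5 libraries per arm. Myl9 is at 1034 to 1688 CPM in expanded and 1645 to 2719 CPM in control libraries, and for Acta2 and Tagln the expanded library of day 4 is the lowest of its arm.

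Vessel-lining cells showed higher Actb. In lymphatic endothelial-like cells Actb was at 2654, 2919, 2722, 3798 and 2228 CPM in control and at 4373, 4347, 4680, 5126 and 4607 CPM in expanded libraries, without overlap (log2 change 0.62, SE 0.155, adjusted p = 0.0107). It was not called without either library of day 4 (adjusted p up to 0.0969), and 13.2% of genes were called in this class. In endothelial-like cells Actb was at 2733 to 3603 CPM in control and at 3362 to 5054 CPM in expanded libraries, higher in 5 of 5 pairs (log2 change 0.42, adjusted p = 0.0251), where 12.5% of genes were called. That call held in 3 of the 10 fits that left out a library, those without the control library of day 1 round 2 or day 2 round 2 or the expanded library of day 1 round 1, and the adjusted p reached 0.115 in the others; it was also lost with cells thinned to 2000 UMIs (0.0536). Without the filter on low counts Acta2 was called lower in this class (-1.74, adjusted p = 0.00855).

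Tagln in endothelial-like cells was lower, at 116, 107, 184, 145 and 149 CPM in control and 67.0, 124, 47.1, 47.8 and 95.7 CPM in expanded libraries (log2 change -0.94, SE 0.268, adjusted p = 0.0459). This call was lost in 8 of 10 fits that left out a library (all but those without the control or the expanded library of day 1 round 2, adjusted p up to 0.101), and with the day-and-round block, mice as replicates, thinned cells or library totals. The summed fibroblast markers in endothelial-like cells fell from 259 to 1170 CPM in control libraries to 24.6 to 195 CPM in expanded ones, and the summed smooth muscle markers were 137 to 386 and 310 to 432 CPM. The part of RNA from those cells in the result was not tested.

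In suprabasal keratinocyte-like cells (852 control and 1222 expanded cells), Actg1, Tpm1 and Vcl were lower in expanded skin. Actg1 was at 3167, 3776, 2790, 3362 and 3579 CPM in control and at 1780, 1849, 2498, 2685 and 3065 CPM in expanded libraries. Each expanded library lay below its partner, most on day 1, with a log2 change of -0.64 (SE 0.133, adjusted p = 0.00358). This fall was called under all 18 alternatives tried, but the class was not tested at clustering resolution 2. At that resolution 446 cells were named suprabasal. A Ly6d-led cluster of 1627 cells stayed unnamed, since its leading genes spoke for hair follicle keratinocytes. At resolution 1 the class is cluster 9, led by Defb6, Ly6d and Cst6, with 0.857 of the suprabasal and 0.875 of the basal keratinocyte markers. Tpm1 was at 196, 190, 105, 116 and 163 CPM in control and at 73.0, 80.7, 86.4, 87.7 and 157 CPM in expanded libraries (log2 change -0.83, SE 0.19, adjusted p = 0.00779), the opposite direction to fibroblast-like cells. Vcl was at 66.6 to 90.6 CPM in control and 55.7 to 65.6 CPM in expanded libraries, without overlap (log2 change -0.52, SE 0.131, adjusted p = 0.0104). Vcl was not called without either day 4 library (adjusted p up to 0.0679) or with thinned cells (0.491). The class had 25.3% of its genes called, the median member changed by -0.47 and the median gene by -0.01 on the log2 scale. The summed fibroblast markers in these cells were 156 to 915 CPM in control and 15 to 157 CPM in expanded libraries, and their part in the result was not tested.

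Basal keratinocyte-like, sebaceous-like and Schwann-like cells had 0 members called by edgeR and 0 by DESeq2, with 2, 1 and 0 members at an unadjusted p under 0.05. These classes also had few genes called, 1.26%, 0.937% and 0.222%. The largest estimates were those of Tagln in basal (-2.73 on the log2 scale, adjusted p = 0.202) and of Tpm1 in sebaceous-like cells (-0.90, adjusted p = 0.305). The sebaceous-like cluster is led by Sdr16c6, Elovl3 and Krt25, the last a marker of hair follicle keratinocytes. At clustering resolution 2 a Krt25-led cluster of 449 control and 211 expanded cells stayed unnamed, and 262 cells were sebaceous-like. The part of such a mix in the Tpm1 estimate was not tested. Tpm1 in sebaceous-like cells was called with the day-and-round block (-1.33, adjusted p = 0.00192) and without the filter on low counts (-0.96, 0.00179). Without that filter 2 members were called in basal cells, Myl9 (-0.85, adjusted p = 0.0189) and Acta2 (-5.43, adjusted p = 1.84e-41), the second on 41, 92, 0, 1 and 45 UMIs in control and 5, 4, 0, 1 and 3 in expanded libraries, so that 2 control libraries held at most 1. In the Coch-led cluster Myl9 was at 30.4, 24.2, 52.7, 48.7 and 70.1 CPM in control and at 23.4, 15.9, 32.0, 32.9 and 46.7 CPM in expanded libraries. It was lower in 5 of 5 pairs (log2 change -0.59, SE 0.144, adjusted p = 0.0186), where 11.3% of genes were called; it was not called without the control or the expanded library of day 4, the control library of day 1 round 1 or the expanded one of day 1 round 2 (adjusted p up to 0.0581), nor with thinned cells or mice as replicates. With the block, Actb (0.26, adjusted p = 0.0495) and Vcl (-0.40, 0.0234) were called there too, Vcl also with a mitochondrial limit of 5% (0.0468), and without the filter on low counts Tagln was (-0.62, 0.0105).

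In macrophage or monocyte-like cells (2660 control and 2387 expanded cells), Flna, Actb and Srf were higher in expanded skin. Flna was at 109, 84.7, 89.9, 166 and 75.2 CPM in control and at 312, 278, 260, 273 and 178 CPM in expanded libraries. The groups did not overlap, and the fold change of 1.20 on the log2 scale (SE 0.167, adjusted p = 0.00125) was the largest rise among the 19 calls. Actb was at 4158 to 8600 CPM in control and 9546 to 14547 CPM in expanded libraries (log2 change 0.91, SE 0.169, adjusted p = 0.00408). Srf was at 6.1, 5.22, 3.43, 8.41 and 6.51 CPM in control and at 15.6, 12.8, 12.2, 14.1 and 10.4 CPM in expanded libraries (log2 change 0.95, SE 0.221, adjusted p = 0.0112). It was called in this 1 class of 10 tested, also without overlap. Actg1 was not called (0.45, adjusted p = 0.118; 0.0487 with the block and 0.0356 without the filter on low counts), and 25.7% of genes were called in the class.

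These rises went with a change of cluster. Control cells of the class lay mainly in cluster 7, led by C1q genes and Cd209f (2060 control and 123 expanded cells), and expanded cells in cluster 4, led by Chil3, Msr1 and Ly6c2 (451 and 2245). Flna was at 62.7 to 94.3 CPM in the 5 control libraries of cluster 7, and at 202 to 431 CPM in 4 control and 181 to 398 CPM in 5 expanded libraries of cluster 4. Within cluster 4 alone, chosen after the clusters were seen, 0 members were called by edgeR, where 0.213% of 8941 genes were called: Flna changed by 0.07, Actb by 0.27 and Srf by 0.54 on the log2 scale (adjusted p = 0.98, 0.652 and 0.696). In that comparison Acta2 had an unadjusted p under 0.05 (0.038), and Tagln and Myl9 were not tested.

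Tagln was lower in the same class, at 6.1, 2.81, 2.06, 12.6 and 2.89 CPM in control and 0, 0.711, 0.713, 0.461 and 3.21 CPM in expanded libraries (log2 change -2.56, SE 0.695, adjusted p = 0.0234). This rests on few molecules, 32, 7, 3, 48 and 12 UMIs against 0, 2, 10, 2 and 17. The call was lost without the control library of day 1 round 1, the control library of day 2 round 2 or either expanded library of day 2 (adjusted p up to 0.0844). Without the filter on low counts Acta2 (-1.03, adjusted p = 0.0129) and Myl9 (-2.44, 0.000722) were called lower as well. Fibroblast markers in these cells summed to 322 to 1575 CPM in control and 65.0 to 290 CPM in expanded libraries, and smooth muscle markers to 4.10 to 31.0 and 1.78 to 15.3 CPM; their part in the result was not tested.

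Dendritic-like and T cell-like cells shared a lower Actg1. In dendritic-like cells Actg1 was at 4967, 4733, 4654, 4654 and 4758 CPM in control and at 3588, 3539, 4144, 4217 and 3598 CPM in expanded libraries, without overlap (log2 change -0.54, SE 0.126, adjusted p = 0.0144). Vcl was at 48.8 to 56.0 CPM in control and 32.2 to 54.0 CPM in expanded libraries (log2 change -0.50, SE 0.126, adjusted p = 0.0215), where 17.6% of genes were called. Neither gene was called without either library of day 4, nor Vcl without the expanded library of day 2 round 2 (adjusted p up to 0.0551 for Actg1 and 0.0898 for Vcl), and Vcl was not called with library totals or thinned cells. With library totals Actb was called higher in dendritic-like cells (0.46, adjusted p = 0.0442). In T cell-like cells Actg1 was at 2718, 3099, 3257, 3245 and 4009 CPM in control and at 1934, 2361, 2673, 2394 and 2935 CPM in expanded libraries, lower in 5 of 5 pairs (log2 change -0.53, SE 0.0968, adjusted p = 0.0269). Only 0.651% of genes were called in T cell-like cells, and Actg1 was 1 of the 7 members tested there. The call was lost in 7 of 10 fits that left out a library, all but those without the expanded libraries of day 1 round 1, day 1 round 2 or day 2 round 1 (adjusted p up to 0.0956), and with library totals, at clustering resolution 2 and with a mitochondrial limit of 5%. With the block Tpm4 was called lower as well (-0.38, adjusted p = 0.0397). Fibroblast markers summed to 223 to 1204 CPM in control and 53.0 to 296 CPM in expanded dendritic-like cells, and to 416 to 2128 and 30.4 to 249 CPM in T cell-like cells; their part in these results was not tested.

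Whether the effect differed between days was tested in the 10 classes with all 10 libraries. No member passed in any of 82 tests by edgeR, with either scaling, and 8 had an unadjusted p under 0.05. The share of all genes called was 0.345% in mural cells, 0.0108% in endothelial-like cells and 0 in the other 8 classes, and day 4 has a single pair. The smallest adjusted p was that of Acta2 in mural cells (0.277), with log2 changes of 0.40 on day 1, -0.37 on day 2 and -0.96 on day 4. Tagln there gave 0.07, -0.59 and -1.20 (adjusted p = 0.288) and Myl9 -0.43, -0.92 and -1.35 (0.697). In suprabasal keratinocyte-like cells Tpm1 gave -1.48, -0.44 and -0.17 (adjusted p = 0.452). In fibroblast-like cells Actb gave 0.59, 0.61 and 0.65, Flna 0.51, 0.69 and 0.20 and Tpm1 0.60, 1.33 and 0.68 on the 3 days.

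Each class was then compared with fibroblast-like cells by the class-by-arm term of a model with libraries as blocks. Of 110 tests 15 were called (41 at an unadjusted p under 0.05; 16 with DESeq2's size factors). Tpm1 was responsible for 6 of them, all with a smaller or opposite effect than in fibroblast-like cells. The difference was -1.65 on the log2 scale in suprabasal (adjusted p = 0.024), -1.25 in basal keratinocyte-like (0.0206), -1.18 in dendritic-like (0.00463), -1.05 in macrophage or monocyte-like (0.00371), -1.05 in Coch-led (0.0402) and -0.93 in endothelial-like cells (0.00911). The effect on Flna was higher than in fibroblast-like cells by 0.82 in macrophage or monocyte-like cells (adjusted p = 0.0102), and the difference was -0.94 in mural (0.00292) and -0.65 in T cell-like cells (0.0292), where Flna was not called and its estimates were -0.46 and -0.26. The effect on Actg1 was lower by 0.68 in dendritic-like, 0.77 in suprabasal and 0.63 in T cell-like cells, that on Actb by 0.50 in suprabasal and 0.70 in T cell-like cells, and that on Tagln by 2.79 in macrophage or monocyte-like cells. In fits that each left out 1 library, 8 of the 15 were called every time, and the other 7 (Tpm1 in basal, suprabasal and Coch-led cells, Tagln in macrophage or monocyte-like cells, Actb in suprabasal cells and Actg1 and Flna in T cell-like cells) were lost in at least 1, with an adjusted p up to 0.104. The share of all genes called in these tests was 16.7% for macrophage or monocyte-like, 9.3% for Coch-led, 8.3% for T cell-like, 7.88% for mural, 7.17% for dendritic-like, 6.79% for endothelial-like, 5.67% for suprabasal, 3.11% for basal, 2.63% for lymphatic endothelial-like, 2.3% for sebaceous-like and 0.887% for Schwann-like cells.

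Hashtags split 8 of the libraries into mice, 14 per arm, and these gave sums per mouse in 7 classes. Animals of an arm and round share a reaction, so a reaction effect and the arm cannot be told apart, and these tests are given beside the library tests. In fibroblast-like cells Actb ran from 1563 to 3357 CPM with a median of 1916 in 14 control mice and from 2661 to 4294 CPM with a median of 3673 in 9 expanded mice (log2 change 0.74, adjusted p = 1.54e-07). Tpm1 ran from 64.4 to 275 CPM (median 148) and from 145 to 798 CPM (median 366), with a log2 change of 1.22 (adjusted p = 0.000252), and Flna changed by 0.54 (4.27e-05) and Actg1 by 0.33 (0.0126). In all, 18 of 50 tests were called, where the share of all genes called was 43.2% in fibroblast-like, 48.6% in macrophage or monocyte-like, 36.2% in dendritic-like, 35.2% in suprabasal, 9.29% in endothelial-like, 9.13% in Coch-led and 6.28% in T cell-like cells. Macrophage or monocyte-like cells of 13 control and 12 expanded mice had higher Actb (0.89), Flna (1.03), Srf (0.87) and Actg1 (0.48). Suprabasal cells of 10 and 7 mice had lower Actg1 (-0.69), Vcl (-0.66), Srf (-0.61) and Tpm4 (-0.51), and Tpm1 was not called (-0.93, adjusted p = 0.0942). In T cell-like cells of 14 mice per arm Actg1 was lower by 0.42 on the log2 scale (adjusted p = 0.00785).

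A list of 42 other MRTF and SRF targets of the contractile and adhesion apparatus went both ways in most classes. In fibroblast-like cells 9 of 39 tested rose and 8 fell, with a median of 0.13 on the log2 scale against 0.01 for all genes. The share of the list called was 43.6% there, where 32.3% of all genes were called; it was 69.0% against 25.7% in macrophage or monocyte-like, 36.8% against 22% in mural, 28.1% against 25.3% in suprabasal, 24.3% against 11.3% in Coch-led, 11.1% against 12.5% in endothelial-like, 8.82% against 13.2% in lymphatic endothelial-like and 11.5% against 17.6% in dendritic-like cells. The leading ones were Actn1 (1.48), which cross-links actin, Tln2 (0.77), Zyx (0.75) and Vasp (0.70) of focal adhesions, and in the other direction Synpo2 (-1.25), Fhl1 (-1.07), Pdlim5 (-0.94) and Myh10 (-0.78), a non-muscle myosin. In mural cells 8 of 38 rose, led by Tln2 (1.46) and Lima1 (0.67), and 6 fell, led by Pxn (-1.83), Myh11 (-1.16) and Palld (-1.10). In macrophage or monocyte-like cells 8 of 29 rose, led by Pdlim7 (1.28), and 12 fell, led by Mylk (-3.30) and Lima1 (-1.94). This class holds cluster 7 (2060 control and 123 expanded cells) and cluster 4 (451 and 2245). The part of that makeup in the class's changes, in this list and those below, was not tested. The Coch-led cluster had 0 of 37 higher and 9 lower, led by Mical2 (-1.23), and suprabasal cells 2 of 32 higher and 7 lower, led by Mical2 (-0.94) and Svil (-0.86). Endothelial-like cells had 1 of 36 higher and 3 lower, lymphatic ones 1 of 34 and 2, dendritic-like cells 1 of 26 and 2, basal ones 0 of 37 and 1 and sebaceous-like ones 0 of 32 and 1. T cell-like (23 tested) and Schwann-like cells (30 tested) had 0 called by edgeR.

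Among 28 genes of actin monomer and filament turnover, macrophage or monocyte-like cells had 11 of 25 higher and 0 lower, led by Tmsb10 (1.72), which binds actin monomers, Coro1a (1.56), Pfn1 (0.83) and Cfl1 (0.78), with a median of 0.43. There 44% of the list was called against 25.7% of all genes, and the part of the change of cluster between the arms was not tested. Fibroblast-like cells had 5 of 28 higher, led by Cfl1 (0.65), which severs filaments, and Pfn1 (0.63), which delivers monomers, and 3 lower, led by Gsn (-1.18), 28.6% of the list against 32.3% of all genes. Pfn1 was also higher in lymphatic endothelial-like (0.90), endothelial-like (0.66), mural (0.59) and suprabasal cells (0.48), and Gsn also lower in the Coch-led cluster (-0.77), lymphatic (-0.74), suprabasal (-0.71) and mural cells (-0.70). Tmsb4x was lower in dendritic-like (-0.82), Coch-led (-0.74), T cell-like (-0.48) and endothelial-like cells (-0.42).

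Of the cofactors and inputs of SRF, fibroblast-like cells had Elk3, a ternary complex factor, higher by 0.89 and Rhoc by 0.47 on the log2 scale, and Scai (-0.81), an inhibitor of MRTF, and the kinases Rock2 (-0.53) and Rock1 (-0.39) lower, 5 of 13 tested where 32.3% of all genes were called. In mural cells Lmo7 (-1.09), Myocd (-0.80), the gene of myocardin, and Rock1 (-0.73) were lower, 3 of 11 where 22% of all genes were called. Macrophage or monocyte-like cells had 1 of 11 higher and 4 lower, against 25.7% of all genes called. Suprabasal cells had 0 of 10 higher and 4 lower (25.3%), and dendritic-like cells 1 of 11 higher and 2 lower (17.6%). The Coch-led cluster had 1 of 11 lower (11.3%) and lymphatic endothelial-like cells 1 of 8 (13.2%). The remaining classes had 0 called by edgeR. Mrtfa and Mrtfb were not among the called genes of any class. Immediate early genes of the ternary complex factor branch, 11 in the list without Srf, are usual early responders to growth factors. Fibroblast-like cells had Egr3 (1.09), Egr2 (0.72) and Ier3 (0.72) higher and Nr4a1 (-0.51) lower, 36.4% of the list where 32.3% of all genes were called. These genes were lower in 7 of 11 in macrophage or monocyte-like, suprabasal and endothelial-like cells, in 6 of 10 in lymphatic and 4 of 11 in mural cells, and higher in none of those 5, where 25.7%, 25.3%, 12.5%, 13.2% and 22% of all genes were called. Egr3 in macrophage or monocyte-like cells fell by 2.99 on the log2 scale (adjusted p = 0.00111), and the part of the change of cluster in this fall was not tested.

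Of 12 other genes of fibroblast activation, fibroblast-like cells had 2 of 11 higher and 5 lower, where 32.3% of all genes were called. Tnc, the matrix protein tenascin C and a leading gene of cluster 1, rose by 4.47 and Ccn2, a known target of MRTF and YAP, by 1.81 on the log2 scale. Col1a1 fell by 2.08, Cthrc1 by 1.88, Fn1 by 1.5 and Col3a1 by 1.49. In these sums cluster 1 gave 1974 of 10600 control and 1314 of 2206 expanded cells. The part of that makeup in the list's changes was not tested.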

How the data were processed

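The deposited matrices hold UMI counts, not normalized. The authors' counting used Cell Ranger 6.1.2, per the file headers, on mm10 per the submitters' processing notes. The 8 hashtag samples hold lists of antibody barcodes. The members and all gene and marker lists were chosen with earlier results of these data known.

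Barcodes were kept from 200 genes and 500 UMIs upward, up to a mitochondrial share of 10%. Doublets (2.20% to 8.19% of a library's cells, by simulated doublets and by more than 1 hashtag) were removed. Cells were clustered with 2000 variable genes, none of them a member or list gene, 30 principal components, 15 neighbours and Leiden resolution 1 (leidenalg 0.10.2, Python 3.11.15). The 34 clusters were named from marker lists into 16 classes, by scoring details set while clusters were examined, so names may differ from the authors'. A cluster stayed unnamed where its markers were too few, its leading genes spoke for another class or 1 library gave over 75% of it; besides the Coch-led cluster, 2475 cells are unnamed. Mice were assigned with HTODemux (Seurat 5.3.0), which gave 20602 cells a mouse.

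Counts were summed per class and library with at least 20 cells, in classes with at least 4 such libraries per arm (sebaceous-like and Schwann-like cells had 4 per arm, the other 10 classes had 5). After filterByExpr and TMM scaling, edgeR 4.0.16 in R 4.3.3 ran its quasi-likelihood test, with day in the model and a threshold of 0.05 on the adjusted p. Alternatives were DESeq2 1.42.0, its size factors, no filter, cells thinned to 2000 UMIs, resolution 2, a mitochondrial limit of 5%, mice as replicates, each library left out, pairs of a day and round as a block and, chosen after seeing the data, library totals and single clusters. On simulated counts with the libraries' own means, 47% to 91% of genes changed by 1 on the log2 scale and 94% to 100% of those changed by 2 were called, over the 12 classes. Libraries of a group differed by more than counting error (chi-square per degree of freedom of at least 65.0), so none was taken for a repeat. The p-values measure the spread between pools of mice.

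The labels give both arms of a day the same sequencing round, which is the source of the pairing. Over classes and pairs, 20 correlations of the deviations of partners ran from -0.0176 to 0.352 with a median of 0.197, and 15 exceeded 0.1.

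All members were named in every class; of each list, up to 4 called genes per direction and class with the largest change were named. The 3 genes most like a member were taken by Pearson's r over the named classes among genes that reach 10 CPM. Shares of cells were compared by exact permutation. Intervals and zero counts cover counting error only.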

Additional observations from a re-analysis of the deposited data

Results flagged for a closer look

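The effect of expansion on 15 combinations of a member and a class differed from its effect in fibroblast-like cells by a test of that difference (edgeR, class-by-arm term, libraries as blocks). Values are differences on the log2 scale, the other class minus fibroblast-like cells. For Tpm1 they were -1.25 in basal keratinocyte-like, -1.05 in Coch-led, -1.18 in dendritic-like, -0.93 in endothelial-like, -1.05 in macrophage or monocyte-like and -1.65 in suprabasal keratinocyte-like cells. For Flna they were 0.82 in macrophage or monocyte-like, -0.94 in mural and -0.65 in T cell-like cells. For Actg1 they were -0.68 in dendritic-like, -0.77 in suprabasal and -0.63 in T cell-like cells. For Actb they were -0.50 in suprabasal and -0.70 in T cell-like cells, and for Tagln -2.79 in macrophage or monocyte-like cells.

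Some of these rested on single libraries. Tpm1 in basal cells was not called without the control or expanded library of day 1 round 2, the control library of day 2 round 1 or the expanded library of day 4 (adjusted p up to 0.055). In suprabasal cells Tpm1 was not called without either library of day 1 round 2 or the expanded library of day 2 round 1 (up to 0.069). In Coch-led cells it was called only without the expanded library of day 1 round 1, the control library of day 2 round 2 or that of day 4 (up to 0.0875 in the others). Tagln in macrophage or monocyte-like cells was called only without the expanded library of day 1 round 1, the control library of day 1 round 2 or either library of day 4 (up to 0.104). Actb in suprabasal cells was not called without any of the control libraries of day 1, the control library of day 4 or the expanded library of day 2 round 1 (up to 0.061). In T cell-like cells Actg1 was not called without the expanded library of day 2 round 2 (0.0519), nor Flna without the expanded libraries of day 1 round 2 or day 2 round 2 or the control library of day 4 (up to 0.079).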

How the results depend on the processing

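Over the 12 classes 19 pairs of a member and a class were called (edgeR), and none of them changed sign under any alternative. DESeq2's size factors and DESeq2 itself called the same 19. Without the filter on low counts 29 were called (9 higher and 20 lower). Leaving out 1 library gave 10 to 20 calls, with 10 without either library of day 4. In those fits day 4 has no contrast, and the part of this in the lower number was not tested. Cluster 1 of the fibroblast-like cells alone gave 6 calls in place of 3, and reversed the estimates of Acta2 (to 2.26 on the log2 scale) and Myl9 (to 1.90), which were not called over the whole class. Cluster 4 of the macrophage or monocyte-like cells alone gave 0 in place of 4, but 1 of those 4, Tagln, was not tested there. With a replicate block for each pair of a day and round 24 pairs were called; the block added 6 calls (fibroblast-like Srf, macrophage or monocyte-like Actg1, Coch-led Actb and Vcl, sebaceous-like Tpm1 and T cell-like Tpm4), ended 1 (endothelial-like Tagln) and changed no other call. Thinned cells gave 14 calls over 11 classes, resolution 2 gave 15 over 10 classes and a mitochondrial limit of 5% gave 18 over 11 classes. For the share of fibroblast-like cells with a UMI, 0 members were called at 2000 UMIs, 5 at 1000 UMIs and 5 without thinning; without any 1 library 0 were called. Class-by-arm tests gave 16 calls with DESeq2's size factors, and tests between days gave 0. Depth limits the low genes: Acta2 passed the count filter in 3 classes, Myl9 in 5 and Tagln in 7.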
